A study of Mus musculus with 12 samples.

Results

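Gpr17, Mobp, Apod and Hapln2 are genes of the oligodendrocyte lineage, and their m6A peaks were compared between the aged and the young mouse hippocampus. Every peak that the authors' table of age-associated peaks assigns to one of these gene names was taken, which gave 7 of its 529 unique peaks and 4 of its 532 gene names. Gpr17 had 4 peaks, all in its 3'UTR, and Mobp, Apod and Hapln2 had 1 peak each. Methylated RNA immunoprecipitation sequencing (MeRIP-seq) reads the fragments of poly(A) RNA that an antibody against N6-methyladenosine (m6A) pulls down, called IP reads here. The aged group was 20-month-old and the young group 3-month-old male C57BL/6 mice, with 3 IP libraries per age, each made from the hippocampus of an individual mouse. These mice had been picked after a qPCR check, and the labels and methods name no transgene or treatment in either group.

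Oligodendrocytes arise from precursor cells that divide, commit, and then wrap axons in myelin. Gpr17 encodes a G protein-coupled receptor of late precursors and newly committed cells, and it is shut off before a cell makes mature myelin. Mobp encodes a myelin-associated basic protein that lies in compact myelin, Apod encodes apolipoprotein D, a secreted lipid carrier made by mature oligodendrocytes, and Hapln2 encodes a link protein that holds the hyaluronan matrix at nodes of Ranvier. m6A is placed on an adenosine within a short consensus called DRACH, that is A, G or T, then A or G, then AC, then A, C or T, of which GGAC is the core most often seen. It is found most often near stop codons and in 3'UTRs.

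The 7 peaks sat in different parts of their transcripts (GRCm38, the assembly behind mm10, with GENCODE M21). The Gpr17 peaks are named a to d here, from the stop codon towards the 3' end, and all lie on the minus strand of chromosome 18. Peak a spans 31946588 to 31946788 and is centred 301 bases after the stop codon. Peak b spans 31946133 to 31946335 (755 bases after it), peak c 31945466 to 31945668 (1422 bases) and peak d 31945017 to 31945232 (1864 bases). The centres lie 454, 667 and 442 bases apart, and all fall in the first 46.7% of a 3'UTR of 3992 bases. Gpr17 lies inside Lims2, which is on the opposite strand, and the sources used here do not say whether reads were counted by strand.

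The peaks of the 3 myelin genes each had another place, at the stop codon in Apod, at the start codon in Hapln2 and in an annotated 3'UTR in Mobp. The Apod peak (chromosome 16, 31297284 to 31297484, minus strand) spans the stop codon, with 141 of its 200 bases in the coding sequence. The Hapln2 peak (chromosome 3, 88024249 to 88024449, minus strand) holds the start codon. Of its 200 bases, 120 are exonic, 88 of them coding, and the others lie in the following intron, which a transcript annotated as retaining that intron covers. The Mobp peak (chromosome 9, 120180567 to 120180771, plus strand) lies wholly in the last exon of 1 annotated transcript, Mobp-204, whose type is nonsense-mediated decay, and is centred 1409 bases after the stop codon of that transcript, in a 3'UTR of 2224 bases. It also overlaps the annotated span of Gm38642, on the same strand, whose exons were not examined.

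Short windows of 25 bases show what surrounds the consensus in the peaks of the 3 myelin genes, 5' to 3' on the transcribed strand of GRCm38, with the motif in capitals. The Apod window (chr16:31297340-31297364, minus strand) was chosen because it carries the only GGAC of that peak, just before the stop codon TAA. The Mobp window (chr9:120180649-120180673, plus strand) carries the DRACH match nearest the peak centre, since that peak has no GGAC. The Hapln2 window (chr3:88024413-88024437, minus strand) carries the only DRACH match in the exonic part of the peak, and it runs past the start codon ATG.
Apod GGAC: gcgaactgcccGGACttcctgtaaa
Mobp DRACH: cctcacagccAGACCcggcaaagtt
Hapln2 DRACH: cggtgcttgcTGACAccatcatgcc
Counted on the annotated strand, GGAC occurred 3, 2, 5 and 1 times in Gpr17 peaks a to d, 1 time each in the Apod and Hapln2 peaks and 0 times in the Mobp peak, and 68.6% of all listed peaks held at least 1. In Hapln2 the GGAC lay in the intronic part. DRACH, some of whose matches contain a GGAC, occurred 7, 5, 11 and 2 times in Gpr17 peaks a to d, 4 times in Mobp, 6 in Apod and 4 in Hapln2, against 85.4% of listed peaks with at least 1 and a median of 2. Gpr17 peak c therefore held the most matches of the 7, and peak d the fewest. The median number of DRACH matches was 6 for listed peaks lower in aged mice, above the counts of Gpr17 peaks b and d. It was 2 for those higher in aged mice. At least 1 match was held by 99.1% of the lower and 81.8% of the higher peaks. GC content was 50.0% to 62.3% in the Gpr17 peaks, above the median of 45.5% for listed peaks lower in aged mice, and 58.3%, 45.0% and 59.0% in the Mobp, Apod and Hapln2 peaks, below the median of 73.5% for those higher in aged mice. A match describes the sequence and does not show which base was methylated.

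The listed peaks held 322474 to 697362 reads in aged libraries and 465628 to 701150 in young libraries, and the 7 peaks took 2.99% to 4.01% of them in aged and 3.34% to 4.15% in young libraries. Reads are given as counts per 1000000 reads (CPM) of an effective library size. That size was 6157990 to 12534220 reads for aged and 12814333 to 16084208 for young libraries. Differences are log2 fold changes of aged over young, tested with edgeR's quasi-likelihood test and adjusted by Benjamini-Hochberg over all 529 listed peaks. Their standard error (SE) was derived from the test, as the absolute log2 fold change divided by the square root of its F statistic. All listed peaks had been selected by the authors for a difference on these same libraries, so these p-values are not independent evidence. Over the whole list 417 peaks lay above 0 and 112 below it, with a median log2 fold change of 0.59. This median was 0.14 if libraries were scaled by column totals, 0.03 by TMM and 0.02 by DESeq2 size factors. With the effective library sizes, young libraries varied more than aged ones, with a median coefficient of variation of 38.6% against 12.9% in aged libraries. Young libraries 2 and 3 usually stood at opposite ends. Young library 3 had the largest effective size (16084208) and the fewest listed reads of its age (465628). Young library 2 had 12814333 and 701150. The spread and order of young libraries therefore depend on the scaling. The CPM of young library 2 exceeded that of young library 3 for 398 of the 417 peaks above 0, and fell short of it for 100 of the 112 peaks below 0. The table lists no peak for most markers of hippocampal cell types, so the tissue label could not be checked against them.

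At each of its 4 peaks, Gpr17 had fewer scaled IP reads in every aged library than in every young one, and the myelin gene peaks had higher means in aged libraries. None of the 7 peaks passed the test at an adjusted p of 0.05, where 1.13% of listed peaks passed, all 6 of them higher and none lower (0.00%). Before adjustment this test put 91 higher and 48 lower peaks under 0.05, and both DESeq2's Wald test and edgeR's likelihood ratio test passed 11 higher and 1 lower. With the effective library sizes, aged and young libraries were fully separated at 4 of 4 Gpr17 peaks and at 2 of 3 myelin peaks. Those 2, Apod and Hapln2, overlapped with column totals. Over the list, 14.9% of peaks were lower without overlap, which is 70.5% of those below 0, and 32.1% were higher without overlap, which is 40.8% of those above 0. At an unadjusted p under 0.05 stood 3 of the 4 Gpr17 peaks, which share 1 transcript, and 1 of the 3 myelin peaks. At that level 9.07% of listed peaks were lower, which is 42.9% of those below 0. Another 17.2% were higher, which is 21.8% of those above 0. A difference in IP reads at a peak cannot be told apart here from a difference in the level of the transcript, because the input libraries were not analysed here, nor fewer cells of a type from less RNA per cell.

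**Figure D1:**
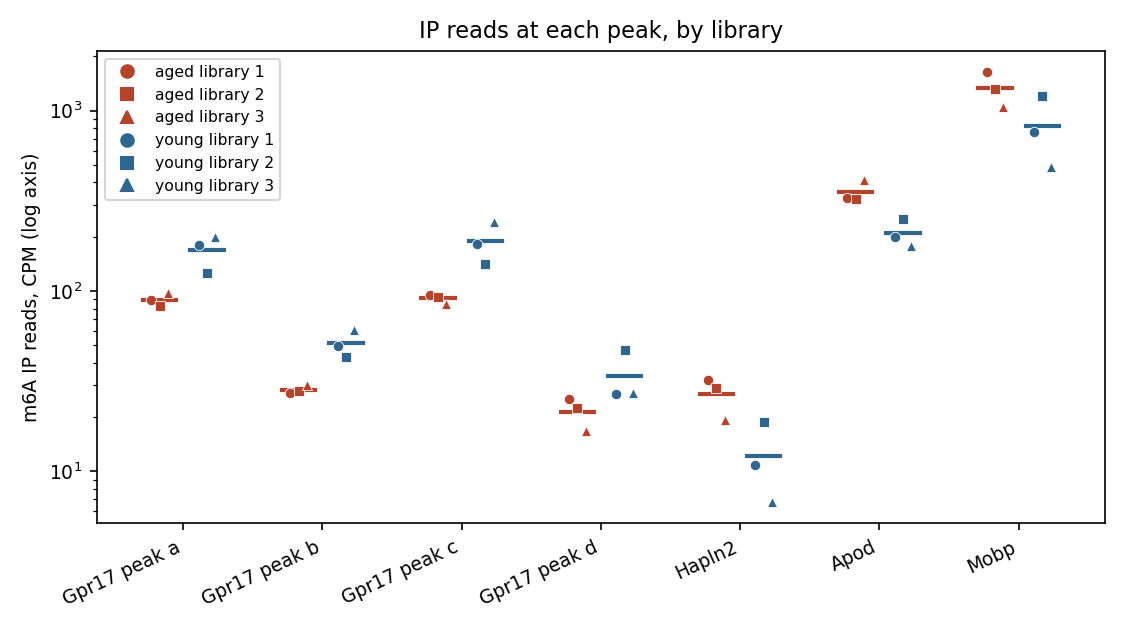
IP reads in CPM on a log axis at each of the 7 peaks, with aged libraries left of young ones, a symbol per library and a bar at the mean of each age. All 3 aged libraries lie below all young libraries at the 4 Gpr17 peaks and above them at Apod and Hapln2, and the ages overlap at Mobp.

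Gpr17 peak a, the nearest to the stop codon, had 88.9, 82.5 and 97.8 CPM in aged libraries 1 to 3, against 179.8, 126.3 and 200.4 CPM in young libraries 1 to 3. The highest aged library stayed below the lowest young one, which was young library 2. The means were 89.7 ± 7.66 CPM in aged and 168.8 ± 38.3 CPM in young libraries (SD, n = 3 each), a log2 fold change of -0.91 (SE 0.35, edgeR adjusted p 0.167). Peak c, the other strong peak, had 95.3, 92.6 and 85.0 CPM in aged libraries, against 182.8, 140.9 and 241.1 CPM in young libraries. Again no library crossed over, and again young library 2 was the lowest of its age. Its means were 91.0 ± 5.29 CPM in aged and 188.3 ± 50.3 CPM in young libraries (SD, n = 3 each), a log2 fold change of -1.05 (SE 0.36, edgeR adjusted p 0.167), which ranks 8 among the 112 lower peaks by size.

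The weaker peaks of Gpr17 had the same sign. Peak b had 27.1, 27.8 and 30.2 CPM in aged libraries, against 49.8, 43.1 and 61.2 CPM in young libraries. The aged values lay within a few CPM of each other and below all young ones. Its log2 fold change was -0.86 (SE 0.31, edgeR adjusted p 0.167), from means of 28.4 ± 1.63 CPM in aged and 51.4 ± 9.15 CPM in young libraries (SD, n = 3 each). Peak d, the farthest from the stop codon, had 25.1, 22.4 and 16.8 CPM in aged libraries, against 27.0, 47.0 and 27.3 CPM in young libraries. Here the ages were separated only narrowly, and young library 2 was the highest of its age and not the lowest. The log2 fold change was -0.65 (SE 0.33, edgeR adjusted p 0.167), with means of 21.5 ± 4.23 CPM in aged and 33.7 ± 11.5 CPM in young libraries (SD, n = 3 each), and -0.34 without young library 2.

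**Figure D2:**
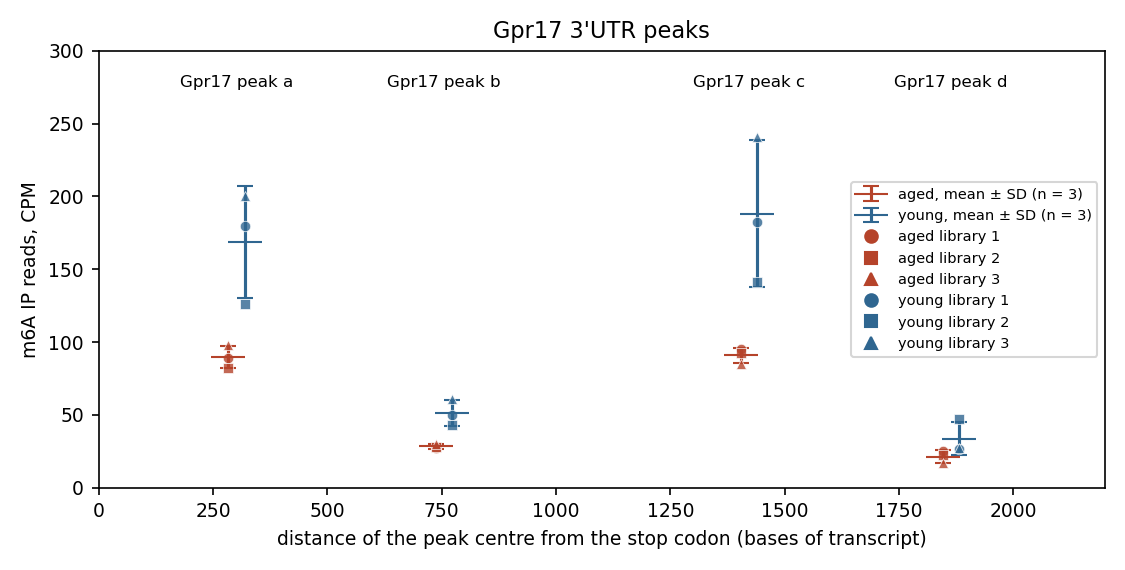
IP reads in CPM at the 4 Gpr17 peaks against the distance of each peak centre from the stop codon in bases, with a symbol per library and the mean ± SD of each age, aged left of young. Peaks a and c carry most reads, and the aged mean is the lower one at every peak.

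Summed over the 4 peaks, which share 1 transcript and are not independent, Gpr17 had 236.4, 225.2 and 229.8 CPM in aged libraries, against 439.3, 357.3 and 530.0 CPM in young libraries. The 3 aged libraries were nearly alike, with a coefficient of variation of 2.43% against 19.5% in young libraries. The sum was 0.521 times the young mean in aged libraries, a log2 fold change of -0.94 (SE 0.37, edgeR adjusted p 0.168). The difference was larger with other scalings, at -1.56 with column totals (adjusted p 0.0541), -1.68 with TMM (0.0367) and -1.71 with DESeq2 size factors (0.0518). Under TMM and DESeq2 size factors all 4 single Gpr17 peaks passed, with adjusted p-values of 0.0337 each and of 0.0493 to 0.0494, beside 16.4% and 8.51% of listed peaks lower and past the test. These scalings and column totals were computed from the listed peaks alone, which were selected for a difference and mostly lay above 0. A listed peak's log2 fold change moved by a median of -0.57 (TMM), -0.58 (DESeq2 size factors) and -0.46 (column totals). The passes are therefore no separate support for a difference at Gpr17.

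The shares of Gpr17 reads that fell in each peak overlapped between ages at all 4 peaks. Peak a took 38.9 ± 3.17% of the summed Gpr17 reads in aged and 38.0 ± 2.79% in young libraries, and peak c 39.5 ± 2.17% in aged and 42.2 ± 3.06% in young libraries (SD, n = 3 each). Peak b took 12.3 ± 0.84% in aged and 11.6 ± 0.37% in young libraries, and peak d 9.30 ± 1.75% in aged and 8.14 ± 4.36% in young libraries. The exact permutation p-values over libraries, two-sided, were 0.7, 0.3, 0.4 and 0.8 for peaks a to d, each 0.8 after adjustment over the 4 peaks, in a design whose smallest p is 0.1. Among libraries of one age, shares varied by more than counting error at peaks a, c and d. Peak a took 37.6% (95% Wilson interval 35.9 to 39.4%) in aged library 1 and 42.5% (40.4 to 44.7%) in aged library 3, and 40.9% (39.7 to 42.1%) in young library 1 and 35.3% (34.0 to 36.7%) in young library 2. Peak c took 39.4% (38.0 to 40.9%) in young library 2 and 45.5% (44.4 to 46.5%) in young library 3. The share of peak d is given for every library, as its young values lay farthest apart for their size. It was 10.6% (9.57 to 11.8%), 9.95% (8.48 to 11.6%) and 7.32% (6.26 to 8.54%) in aged libraries, against 6.14% (5.58 to 6.74%), 13.1% (12.2 to 14.2%) and 5.15% (4.70 to 5.64%) in young libraries. Young library 2 thus had the largest share of peak d of all 6, and these intervals cover counting error only.

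Mobp had the most IP reads of the 7 peaks, with 1633.5, 1325.8 and 1049.0 CPM in aged libraries, against 765.2, 1201.2 and 485.8 CPM in young libraries. Young library 2 lay above aged library 3, so the ages overlapped. The means were 1336 ± 292 CPM in aged and 817 ± 361 CPM in young libraries (SD, n = 3 each), a 1.63-fold difference (log2 fold change 0.71, SE 0.44, edgeR adjusted p 0.182), near the list's median of 0.59, and 0.44 without young library 3. This was the weakest of the 7 by p-value, at rank 377 of 529.

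Apod had 327.3, 324.9 and 413.4 CPM in aged libraries, against 199.5, 249.8 and 178.7 CPM in young libraries. Every aged library lay above every young one, but not with column totals. There young library 3, with 2875 of 465628 listed reads, lay above aged library 1, with 4102 of 697362. With the recovered library sizes, Apod had the smallest spread among young libraries of the 3 myelin peaks (17.5%, against 44.1% for Mobp and 50.7% for Hapln2). Its log2 fold change was 0.76 (SE 0.37, edgeR adjusted p 0.167), from means of 355 ± 50.4 CPM in aged and 209 ± 36.5 CPM in young libraries (SD, n = 3 each).

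Hapln2 had the fewest reads of the 7 peaks in young libraries. With the recovered library sizes it had the largest fold of the 7, whereas with column totals, under TMM and under DESeq2 size factors all 4 Gpr17 peaks differed by more. It had 32.1, 28.9 and 19.3 CPM in aged libraries, against 10.8, 18.9 and 6.78 CPM in young libraries. The ages did not overlap, although aged library 3 was only just above young library 2. With column totals these libraries changed places (169 of 500646 listed reads in aged library 3, 242 of 701150 in young library 2). The means were 26.8 ± 6.63 CPM in aged and 12.2 ± 6.17 CPM in young libraries (SD, n = 3 each), 2.21-fold higher (log2 fold change 1.14, SE 0.39, edgeR adjusted p 0.167, rank 15 by size among 417 higher peaks). These values rest on 402, 178 and 169 reads in aged and 161, 242 and 109 reads in young libraries.

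With the recovered library sizes, all 3 myelin peaks shared 1 order of the young libraries, with library 3 lowest and library 2 highest. This was the reverse of the order at Gpr17 peaks a, b and c. With column totals, Apod instead had library 2 lowest (3201 of 701150 listed reads) and library 3 highest (2875 of 465628), as those Gpr17 peaks did. Without young library 2, 6 of the 7 peaks passed the test, as did 97.0% of listed peaks. The log2 fold changes were then -1.08, -0.97 and -1.22 at Gpr17 peaks a, b and c, 1.10 at Mobp, 0.91 at Apod and 1.61 at Hapln2, with edgeR adjusted p-values of 0.000582, 0.0011, 0.000288, 0.00289, 0.00358 and 0.000134. Gpr17 peak d did not pass (0.214). The summed Gpr17 peaks had -1.07 (adjusted p 0.00108). With other scalings the myelin differences shrank and kept their sign, to 0.28, 0.17 and 0.16 at Mobp, 0.25, 0.13 and 0.11 at Apod and 0.73, 0.62 and 0.62 at Hapln2 with column totals, TMM and DESeq2 size factors.

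**Figure D3:**
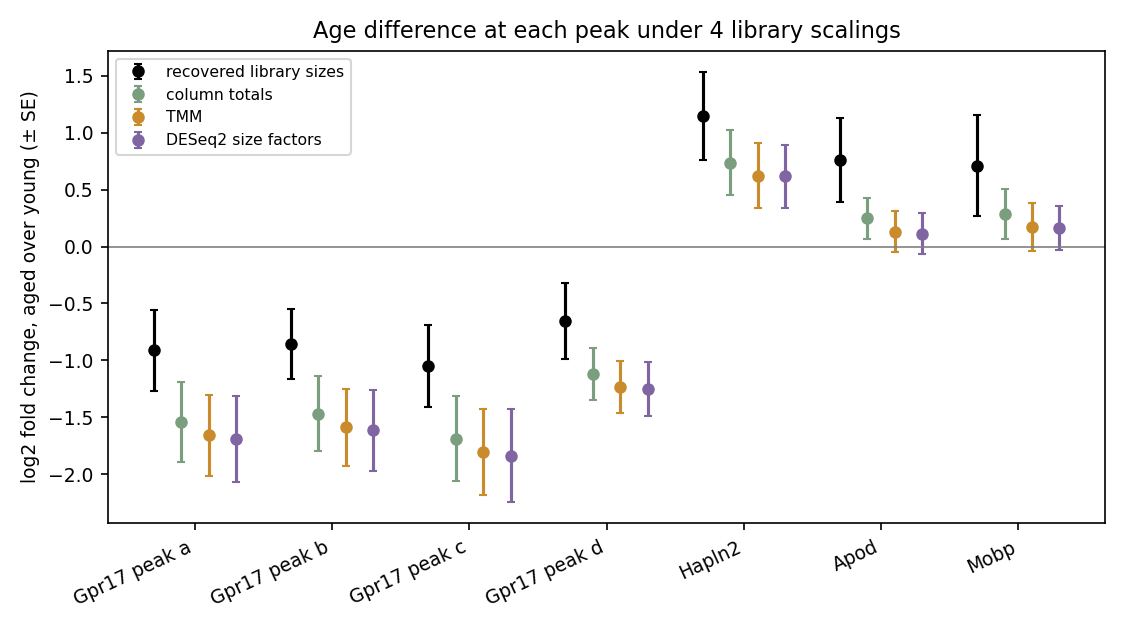
Log2 fold change of aged over young (± SE) at each peak under the recovered library sizes, column totals, TMM and DESeq2 size factors. Every Gpr17 value lies below 0 and every myelin value above it, while Mobp and Apod come close to 0 under TMM and DESeq2 size factors.

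**Figure D4:**
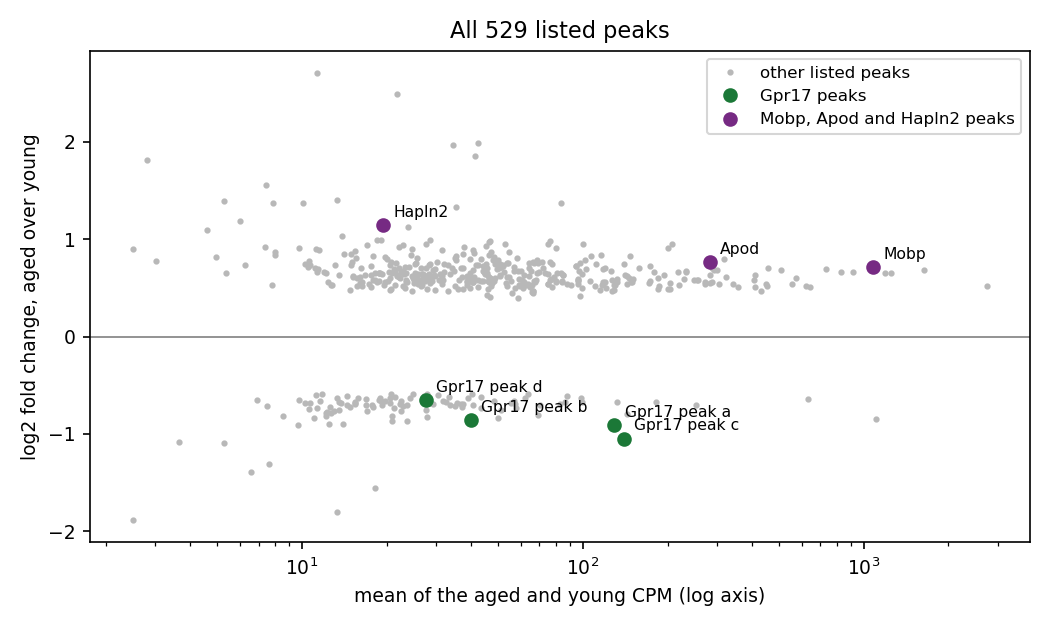
Log2 fold change of aged over young against the mean of the aged and young CPM (log axis) for all 529 listed peaks, each point a peak. The Gpr17 peaks lie among the 112 peaks below 0 and the Mobp, Apod and Hapln2 peaks among the 417 above it.

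A ratio of reads within 1 library needs no library size. The myelin peaks together held 8.43, 7.46 and 6.45 reads per Gpr17 read in aged libraries, against 2.22, 4.11 and 1.27 in young libraries. All aged libraries lay above all young ones, with young library 2 nearest. The log2 ratio averaged 2.89 ± 0.19 in aged and 1.18 ± 0.85 in young libraries (SD, n = 3 each), a 3.27-fold difference (exact permutation p 0.1, two-sided, the smallest this design allows, and 0.122 adjusted over 11 ratios). The signs of these peaks were known when the genes were chosen, and the authors had listed peaks past a cutoff on fold change. A difference in this direction and of some size was therefore set in advance. This ratio and the single-gene ratios to Gpr17, with their p-values, are descriptions only.

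Each myelin gene alone gave the same order of ages. Mobp had 6.91, 5.89 and 4.56 reads per Gpr17 read in aged libraries, against 1.74, 3.36 and 0.916 in young libraries (3.26-fold). Apod had 1.38, 1.44 and 1.80 in aged libraries, against 0.454, 0.699 and 0.337 in young libraries (3.23-fold). Hapln2 had 0.136, 0.128 and 0.0842 in aged libraries, against 0.0246, 0.0529 and 0.0128 in young libraries (4.45-fold). None of these ratios overlapped between ages. With a single Gpr17 peak as the denominator, the log2 difference of the summed myelin reads was 1.68, 1.63, 1.81 and 1.41 for peaks a to d.

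**Figure D5:**
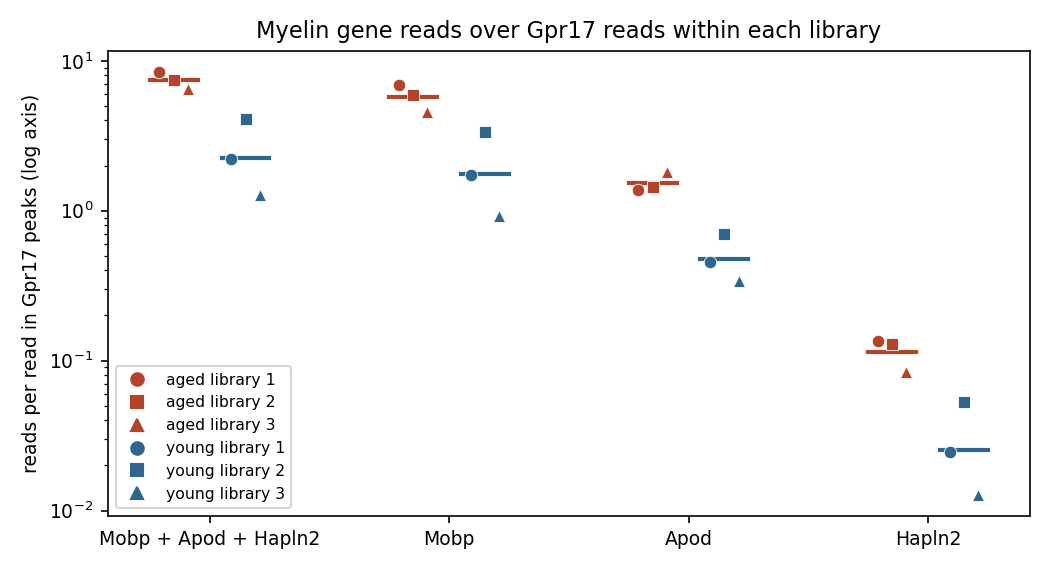
IP reads at the myelin gene peaks per read in the 4 Gpr17 peaks of the same library (log axis), for the 3 genes together and each alone, aged left of young, with a symbol per library and a bar at the geometric mean. All aged libraries lie above all young ones in each of the 4 ratios.

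Among the myelin genes, the ratio of Mobp to Apod overlapped between ages. There were 4.99, 4.08 and 2.54 Mobp reads per Apod read in aged libraries, against 3.84, 4.81 and 2.72 in young libraries, a log2 difference of 0.01 (exact permutation p 1). Hapln2 reads per Mobp read were 0.0196, 0.0218 and 0.0184 in aged libraries, against 0.0141, 0.0157 and 0.0140 in young libraries. They did not overlap and had little spread (log2 difference 0.45, exact permutation p 0.1, the smallest possible). Against Apod, the log2 difference of Hapln2 was 0.46 with overlapping libraries (exact permutation p 0.3).

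Per 100 bases of peak, the order of the mean levels in aged libraries was Mobp (655 CPM), Apod (178), Gpr17 peaks c (45.0) and a (44.9), b (14.0), Hapln2 (13.4) and Gpr17 peak d (9.98). Neighbours from c to a and from b through Hapln2 to d overlapped between libraries. In young libraries it was Mobp (401), Apod (105), Gpr17 peaks c (93.2), a (84.4), b (25.4) and d (15.7), and Hapln2 (6.08). There Apod overlapped with c, c with a, and b with d. Hapln2 was thus the lowest of the 7 in young libraries and overlapped with Gpr17 peaks b and d in aged libraries. IP level at a peak depends on the transcript's abundance as well as on its methylation, so this is an order of IP reads.

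Outside these genes, the listed peaks whose log2(CPM + 1) followed the Gpr17 sum most closely over the 6 libraries were a Pcdh20 peak (Pearson r 0.997), a Map2 peak (0.996) and another Pcdh20 peak (0.985). Pcdh20 encodes a protocadherin and Map2 a microtubule-associated protein of neuronal dendrites. The Map2 peak had 196.7, 191.8 and 186.6 CPM in aged libraries, against 301.2, 270.7 and 367.7 CPM in young libraries. Those closest to the myelin sum were Ttc9 (0.998), Soga1 (0.994) and Cds2 (0.992), Cds2 being an enzyme of phospholipid synthesis. The 6 libraries fall into 2 ages and share their scaling, so such values are descriptions. A correlation of at least 0.95 was reached by 14 of 522 other peaks for Gpr17 and by 89 of 522 for the myelin sum.

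Few other oligodendrocyte genes had a listed peak. In the list of oligodendrocyte precursor genes, to which Gpr17 belongs, Dscam, a cell adhesion molecule that neurons also express, had a log2 fold change of 0.65 with overlapping libraries, beside a median of 0.59 over all listed peaks. Gpr17 was the only one of 14 genes of committed and newly formed oligodendrocytes in the list. Of 41 genes of mature oligodendrocytes and myelin, 4 were listed, Mobp, Apod, Hapln2 and the ephrin ligand Efnb3, all above 0, none past the test and with a median of 0.77. Efnb3 averaged 128.5 ± 13.8 CPM in aged and 74.5 ± 48.0 CPM in young libraries (SD, n = 3 each), with overlap.

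Among genes of the node of Ranvier and paranode, to which Hapln2 belongs, the potassium channel Kcnq3 had a log2 fold change of 0.59 without overlap, but -0.03 with TMM and -0.04 with DESeq2 size factors. Ank3, which anchors channels at the node, had -0.66 with overlap, the opposite sign to Hapln2. Neither passed the test.

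Markers of other cell types lay mostly above 0 as well. Listed were 2 of 13 astrocyte, 2 of 12 microglia, 2 of 10 excitatory and 2 of 11 inhibitory neuron genes, all above 0 and with medians of 0.59, 0.69, 1.06 and 1.68, of which the inhibitory neuron gene Adarb2 passed the test. The listed astrocyte genes summed to 4119 to 4429 CPM in aged and 1806 to 4131 CPM in young libraries, and the microglia genes to 230.9 to 287.2 CPM in aged and 108.9 to 219.7 CPM in young libraries. The astrocyte gene Apoe and the inhibitory neuron gene Cnr1 turned below 0 with TMM and DESeq2 size factors. Of 15 choroid plexus, ependymal, endothelial and meningeal genes 1 was listed, Cldn2, at -1.56 with overlap. The part of these cell types in the values of Gpr17, Mobp, Apod and Hapln2 was not tested.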

How the data were processed

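The deposited table holds whole-number read counts per peak and IP library, which the authors did not normalise, for peaks they had called differential. Per the submitters' processing notes, the genome was mm10, and the tools included STAR 2.5.3a for alignment, MACS2 2.2.1 for peaks and Subread 1.6.4 for counting. Others were Bowtie2 2.2.7, which the methods name for filtering contaminant reads, Trimmomatic 0.36, bedtools 2.25.0 and SAMtools 1.3. The methods describe trimming, removal of ribosomal reads, unique alignment, peak calling with a cutoff on fold enrichment, and counting. For differential peaks they name edgeR's likelihood ratio test, with cutoffs on fold change and on a false discovery rate of 0.05. They also name an optional step against unwanted variation (RUV) and do not say whether this table used it. No such step was part of the tests here. The deposited log2 average abundance comes from the authors' edgeR fit. The deposited log2 fold change, likelihood ratio score, p-value and adjusted p-value columns hold the authors' comparison and were not used. The 862 rows reduce to 529 unique peaks.

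Because column totals of selected peaks are not depths, effective library sizes were recovered by least squares from the average abundance column alone, with 1 dispersion (largest absolute difference from the deposited values 6.28e-07). These sizes carry the authors' scaling. The main test was edgeR 4.0.16's quasi-likelihood F test (R 4.3.3), aged against young, without covariates, at an adjusted p of 0.05 over 529 peaks. The script was tested on simulated data. Ratios and shares used exact two-sided permutation over the 6 libraries (Python 3.11.15, SciPy 1.17.1). Replicates are different mice. DESeq2 1.42.0 served for alternatives. Other alternatives were column totals, TMM, the likelihood ratio test, a mean of at least 100 reads, the replicate block and each library left out.

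Sequences were read from GRCm38 as if deposited starts count from 0, which the table does not state, and coordinates of peaks are as deposited. Named genes were all peaks of the 4 genes, listed genes of 4 oligodendrocyte and node lists, and the 3 peaks most like each sum. A few values of the precursor and node lists are not reported here. Other genes named were chosen after their values were seen. The genes and lists were chosen with earlier results of these data known.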

Additional observations from a re-analysis of the deposited data

How the results depend on the processing

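The sign of the difference at each of the 7 peaks, of the summed Gpr17 peaks and of the within-library ratio held under every alternative run. The number of listed peaks past the test (6 higher, 0 lower) became 11 and 1 by both edgeR's likelihood ratio test and DESeq2's Wald test. TMM gave 6 and 87, DESeq2 size factors 6 and 45, and column totals 6 and 3. The numbers ranged from 4 to 410 higher and 0 to 103 lower with 1 library left out. The extremes of 410 and 103 came without young library 2, and without young library 3 there were 14 higher. The median move of a peak's log2 fold change was -0.57 under TMM, -0.58 under DESeq2 size factors and -0.46 under column totals, all computed from the listed peaks alone. The number of the 7 peaks past the test (0) was 4 with TMM, 4 with DESeq2 size factors and 0 to 6 with 1 library left out. The summed Gpr17 peaks passed with TMM (-1.68, edgeR adjusted p 0.0367) and ranged from -1.07 to -0.79 with 1 library left out, past the test only without young library 2. The log2 ratio of myelin to Gpr17 reads (1.71) ranged from 1.29 to 2.14 with 1 library left out. The age difference in the share of Gpr17 reads, 0.89 percentage points at peak a and 1.16 at peak d, changed sign on leaving out a library, with ranges of -0.92 to 2.34 and -0.34 to 3.66. It was -0.92 at peak a without aged library 3, -0.45 at peak a without young library 2 and -0.34 at peak d without young library 3. With column totals, 1 of the 3 peaks most like the myelin sum was again among its first 3. The cause of these changes was not tested. Reads were fewest at Hapln2 in young libraries (109 to 242) and at Gpr17 peak d in aged ones (138 to 315), which limits the precision there.

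Labels give both ages replicate numbers 1 to 3. Deviations of same-numbered libraries correlated at -0.18, -0.03 and -0.02, so the numbers were not taken to pair the libraries. With the replicate number as a block, 6 listed peaks were higher and 1 lower past the test, 0 of the 7 peaks passed, the summed Gpr17 peaks had -0.92 (edgeR adjusted p 0.201), and the ratio of 1.71 had an exact paired permutation p of 0.25, the smallest for 3 pairs.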
